A study of Mus musculus with 5 samples.

Results

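The synaptic vesicle and exocytosis genes are a list of 49 genes whose products build, fill, dock, fuse and retrieve the vesicles that hold neurotransmitter. Probes were assigned by gene symbol: a probe belonged to the list if the platform annotation names 1 of the 49 genes for it. Of these, 48 had at least 1 probe among the 19087 genes on the array, Sv2c being without one here. A gene entered the test if at least 1 of its probes was measured on all 5 arrays, which 36 of the 48 did, among 11191 genes tested in all.

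The cells were N18, a mouse neuroblastoma line. One sample of each pair had been infected with an adenovirus that carries the Dyrk1a coding sequence (pAd-Dyrk1a), and the other with the control adenovirus vector pAd-Track-CMV, so both sides carried virus. Every one of the 5 arrays paired RNA of 1 Dyrk1a sample with RNA of 1 control sample. Dyrk1a RNA carried the dye Cy5 on replicates 1, 2 and 3, called the Cy5 arrays here, and Cy3 on replicates 4 and 5, the Cy3 arrays. The dose of virus, the time after infection and the promoter that drives Dyrk1a were not stated in the sources at hand, and only this 1 cell line was used.

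A synaptic vesicle carries transporters that load transmitter, the synapsins that tether vesicles to each other, and a synaptotagmin that senses calcium. At the active zone of the presynaptic membrane, Rab3 and its effectors dock the vesicle, and SNARE proteins on vesicle and plasma membrane zip together to fuse the membranes. Dynamin, amphiphysin and endophilin then help to pull the membrane back in. DYRK1A, the protein kinase added here, is known to phosphorylate dynamin 1 and amphiphysin, but the arrays measured RNA and say nothing of the phosphorylation of a protein. Several genes of this group, Syn1 among them, are textbook targets of REST, which silences neuronal genes in other tissues.

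Values below are log2 ratios, Dyrk1a sample over control sample, centred on the array's median unless given as deposited. A fitted change is limma's estimate of that ratio, and the dye effect is how far the mean of the Cy5 arrays lies above it and that of the Cy3 arrays below it. Dyrk1a itself was above 0 on all 5 arrays, with a fitted change of 2.46 (SE 0.12). The table states neither log base nor direction, and the direction was read from this gene, so its sign is no separate check of the labels. The arrays had values for 63.8% to 70.0% of their features. Replicate 2 had the widest spread, with an interquartile range of 0.29 over genes, against 0.15 to 0.17 in the other arrays. Of 14 markers of neuroblasts and neurons, 8 were measured on all arrays, and limma called 0 of these at an adjusted p under 0.05. All 8 had a fitted change above 0, from 0.012 to 0.25, against 54.9% of all genes tested. Their median was 0.16, with medians by array of 0.10 to 0.31, highest in replicate 2. For glia 0 of 7 markers and for immune cells 0 of 4 were measured on all arrays, and 2 of 5 for fibroblasts, with a median of -0.016. The reason for blank values was not stated in the sources at hand, and a ratio gives no level, so the arrays do not show how much of each gene N18 cells express. More RNA per cell and a larger share of cells that hold the RNA cannot be told apart in such samples.

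No synaptic vesicle or exocytosis gene passed the test for Dyrk1a. Of the 36 genes tested, 26 had a fitted change above 0, against 54.9% of all genes tested, and the median was 0.046, against 0.0080 over all genes. The list was chosen with earlier results of these data known. This share and those below therefore describe the list and are no test of it. By array, the median over the 36 genes was 0.025, 0.074 and 0.037 on the Cy5 arrays, against 0.017 and 0.027 on the Cy3 arrays. All 5 of these medians were above 0 and replicate 2 had the highest. The 8 neuroblast and neuron markers were also above 0 in the fit, and their part in this was not tested.

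At an adjusted p under 0.05 limma called 0 of the 36, where it called 0.00894% of all genes, which is Dyrk1a alone. At an unadjusted p under 0.05 there were 7, namely Syn2, Rab3a, Syt7, Syt11, Dnm1, Cplx2 and Syngr1. That is 7 of 36, against 11.6% of all genes. All 7 were higher, where 5.25% of all genes passed that line as higher, and 0 were lower, where 6.38% of all genes did. Syngr1, Dnajc5, Syn2, Syt11 and Napa were above 0 on all 5 arrays, 5 of 36, against a background of 6.71%. The number below 0 on all 5 was 0, against 6.32%. The 95% interval lay within a 1.2-fold change either way for 31 of 36, a share close to the 84.8% of all genes. Those with intervals reaching further were Syn2, Syn1, Slc32a1, Cplx1 and Dnm1.

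**Figure D1:**
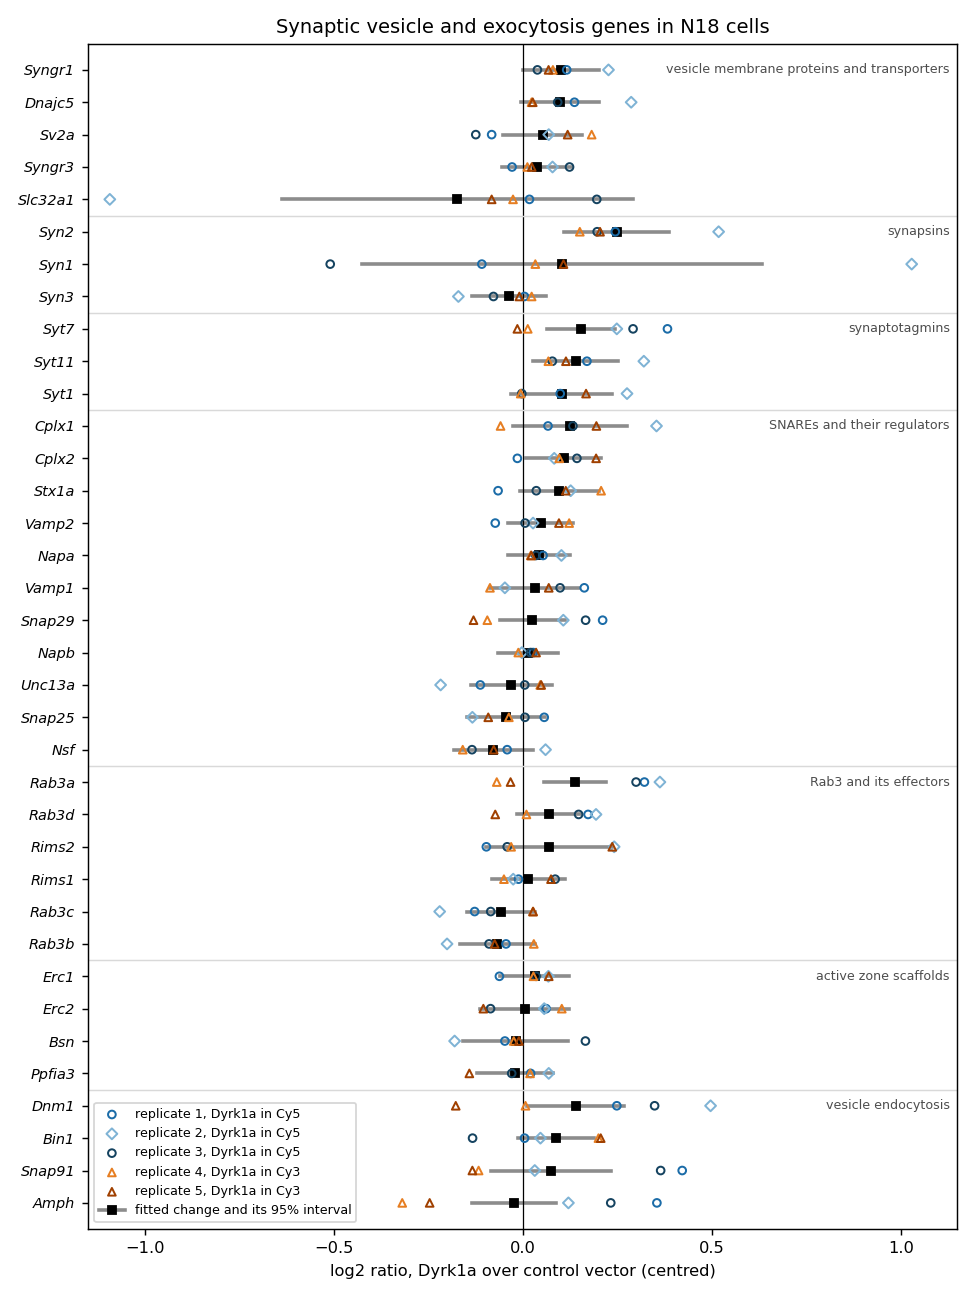
The log2 ratio of Dyrk1a over control vector (x axis, centred) of the 36 genes tested, grouped by role, with 1 symbol for each array and the fitted change with its 95% interval. Syn2 has the highest fitted change at 0.25. In Amph, Snap29, Snap91 and Rab3a the Cy5 arrays (blue) and the Cy3 arrays (orange) lie on opposite sides of 0.

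Synapsins coat the outside of the vesicle and hold it in the reserve pool. Syn2 had the highest fitted change of the 36 genes and the smallest p. Its ratios were 0.245, 0.52 and 0.197 on the Cy5 arrays, against 0.151 and 0.205 on the Cy3 arrays, averaging 0.26 ± 0.15 (SD, n = 5). All 5 arrays were above 0, and replicate 2 stood apart at the top. The fitted change was 0.25 (SE 0.057, 95% interval 0.11 to 0.39), a ratio of 1.19, with a limma adjusted p of 0.185. Without replicate 2 it was 0.20 and past the threshold (limma adjusted p = 0.0309). Syn2 was then 1 of 36 called, where limma called 3.36% of all genes, 0.858% as higher and 2.5% as lower. Without replicate 1 or 3 the fitted change was 0.27 and 0.28 (limma adjusted p = 0.405 and 0.278). Without replicate 4 or 5, which leaves 1 Cy3 array, the fitted change was 0.26 and 0.24.

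The 3 Syn2 probes did not follow the same course over the arrays. The first had ratios of 0.35, 1.04, 0.23, 0.034 and 0.11 in replicates 1 to 5, with replicate 2 far above the rest and a mean of 0.35. The second was at 0.24, 0.073, 0.32, 0.44 and 0.39, lowest where the first was highest. It was above 0 on all 5 arrays and had the smallest spread of the 3 about its fitted change of 0.32 (SE 0.049). Fitted as a feature of its own, it had a limma adjusted p of 0.106, and of 0.0127 without replicate 2, a setting chosen after seeing the data. Probe 3 averaged 0.14, with 0.44 in replicate 2 and values of -0.023 to 0.15 elsewhere.

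Syn1 was measured by 1 probe on all arrays, and its ratios had the widest spread of the 36 genes (SD 0.57, n = 5). They were -0.108, 1.03 and -0.51 on the Cy5 arrays, against 0.034 and 0.108 on the Cy3 arrays. Replicates 2 and 3 carried the same dye and lay far on opposite sides of 0, and the fitted change of 0.10 had a 95% interval of -0.43 to 0.63. Without replicate 2 the fitted change of Syn1 was -0.12, and 0.085 to 0.27 without any other array. A second Syn1 probe, outside the fit, was measured on 3 arrays, at -0.029, 0.23 and 0.27 in replicates 3, 4 and 5. Syn3 was near 0, with a fitted change of -0.037 (SE 0.040). Its 4 probes measured on all arrays averaged -0.149, -0.022, -0.019 and 0.0081, so they did not share a sign. Only the first of them went beyond 0.2 from 0, at -0.48 and -0.26 in replicates 2 and 4.

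**Figure D2:**
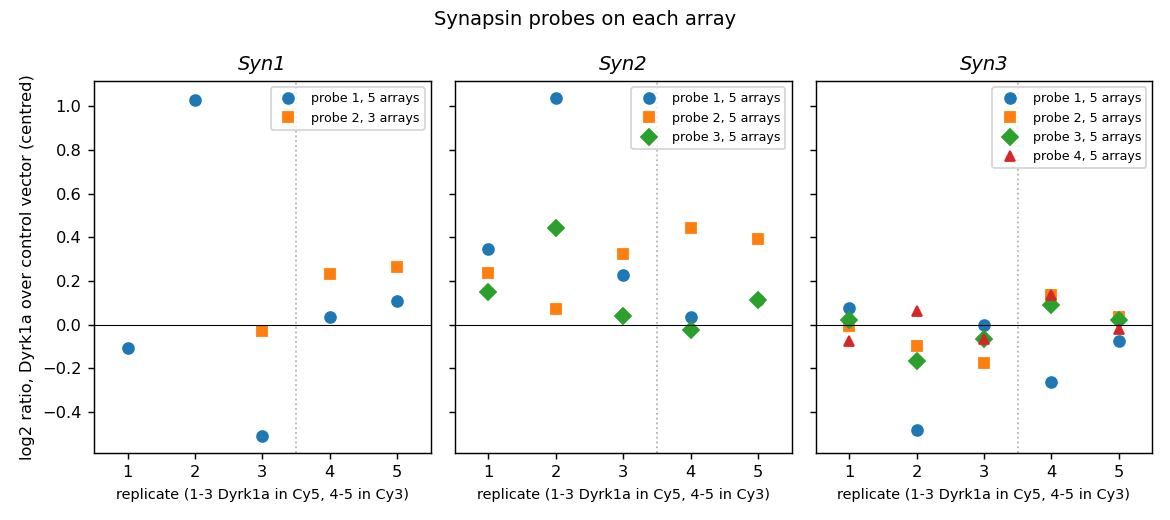
The centred log2 ratio of each probe of Syn1, Syn2 and Syn3 measured on 3 or more arrays (y axis), by replicate (x axis), with a dotted line between the Cy5 and the Cy3 arrays. In replicate 2 the first probes of Syn1 and Syn2 reach 1.03 and 1.04, while the second probe of Syn2 is at 0.073.

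The promoters of Syn1 and Syn2 are shown because only 1 of these related genes holds a match to a part of the REST site. From RefSeq (build GRCm38.p6), windows of 250 bases before to 50 after the start were at hand for 39 of the 49 genes, 49 windows in all. Motifs were searched on both strands, and no matches overlapped in the sequences printed. TTCAGCACC is the left part of the REST binding site and GGACAG lies in its right part. TGACGTCA is the cyclic AMP response element, which reads the same on both strands. The 250 bases before the start are given 5′ to 3′ on the gene's own strand, with matches in capitals.
Syn1, chrX:20920919-20921168, minus strand: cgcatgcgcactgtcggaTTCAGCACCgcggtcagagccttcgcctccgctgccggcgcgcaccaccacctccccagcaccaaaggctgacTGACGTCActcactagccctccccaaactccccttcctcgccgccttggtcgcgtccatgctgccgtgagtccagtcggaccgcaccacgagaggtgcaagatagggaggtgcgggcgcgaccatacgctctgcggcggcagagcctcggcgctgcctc
Syn2, chr6:115134652-115134901, plus strand: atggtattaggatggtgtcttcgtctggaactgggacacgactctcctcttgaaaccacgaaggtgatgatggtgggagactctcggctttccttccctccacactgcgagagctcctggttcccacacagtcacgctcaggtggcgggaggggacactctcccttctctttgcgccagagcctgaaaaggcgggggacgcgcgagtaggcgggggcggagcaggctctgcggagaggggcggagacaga

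Syn1 holds TTCAGCACC 232 bases before its start and TGACGTCA 159 before it. No match to the 3 motifs was found for Syn2. TTCAGCACC was found in 3 of the members' windows, those of Syn1, Unc13a and Ppfia3, and in 0.371% of all windows. Of these 3 genes only Unc13a also had GGACAG. On the opposite strand Unc13a had TTCAGCACC at base 23 and GGACAG at base 9 after its start. Its own strand held GGACAG 160 bases before the start. A full REST site was not searched for, and neither near matches nor the spacing between matches was examined, in Syn1 or elsewhere. Ppfia3, which encodes a liprin scaffold of the active zone, has TTCAGCACC 46 bases before its start, and the stretch around it is given for comparison with Syn1.
Ppfia3, chr7:45367026-45367105, minus strand: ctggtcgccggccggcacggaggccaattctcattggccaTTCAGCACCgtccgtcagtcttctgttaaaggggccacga

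The 3 genes with that match had fitted changes of 0.10 (Syn1), -0.030 (Unc13a) and -0.020 (Ppfia3), none past the threshold. The sign for Syn1 turned without replicate 2 (-0.12), and that for Ppfia3 without replicate 5 (0.020). GGACAG was found in 22.4% of the members' windows and in 22.2% of all windows. TGACGTCA was found in the windows of Syn1, Napa and Sh3gl2, 6.12% of the members' windows against 1.79% of all. A match describes the letters only, and binding was not measured.

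Synaptotagmins are the calcium sensors of release, and all 3 that were tested had a fitted change above 0. Syt7, a slow sensor of high calcium affinity, had ratios of 0.38, 0.25 and 0.29 on the Cy5 arrays. On the Cy3 arrays it was at 0.014 and -0.014, so the orientations did not overlap. Its fitted change was 0.15 (SE 0.037) with a limma adjusted p of 0.196, and its dye effect was as large, at 0.15. Syt7 had 3 further probes, each measured on 1 array, at 0.135, 0.028 and -0.022 as deposited.

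Syt11, a family member that does not bind calcium, was above 0 on all arrays, with overlapping orientations. It was at 0.170, 0.32 and 0.079 on the Cy5 arrays, against 0.068 and 0.115 on the Cy3 arrays, with a fitted change of 0.14 (SE 0.046) and a limma adjusted p of 0.337. One of its probes was steady, at 0.126, 0.091, 0.161, 0.130 and 0.107 in replicates 1 to 5. Its other probe ran from -0.004 to 0.55, highest in replicate 2. Syt1, the fast sensor of synchronous release, had a fitted change of 0.10 (SE 0.054), with 0.28 in replicate 2 and -0.0052 to 0.17 in the others, of which replicates 3 and 4 were below 0. Syt4 and Syt5 had no probe measured on all arrays. The 3 values of Syt4 were 0.026 to 0.041 as deposited and the 4 of Syt5 ran from -0.002 to 0.193.

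Of the vesicle membrane proteins and transporters, 5 of 11 were tested and 4 had a fitted change above 0. Syngr1, a tetraspan protein of the vesicle membrane, was at 0.117, 0.227 and 0.039 on the Cy5 arrays, against 0.080 and 0.069 on the Cy3 arrays. All arrays were above 0 and the orientations overlapped, with a fitted change of 0.10 (SE 0.041, limma adjusted p = 0.443). Dnajc5, the vesicle chaperone called cysteine string protein, was at 0.137, 0.287 and 0.093 on the Cy5 arrays, against 0.024 and 0.027 on the Cy3 arrays. Its fitted change was 0.099 (SE 0.042, limma adjusted p = 0.473), and its 3 probes averaged 0.142, 0.068 and 0.130.

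Syngr3, a relative of Syngr1, and Sv2a, a vesicle glycoprotein that binds the antiseizure drug levetiracetam, had fitted changes of 0.038 and 0.053. Sv2a was at -0.082, 0.069 and -0.124 on the Cy5 arrays, against 0.18 and 0.12 on the Cy3 arrays. It leaned the other way with the dye from Syt7, and its orientations did not overlap. Slc32a1, which loads GABA and glycine into vesicles, had the lowest fitted change of the 36 genes, at -0.17 (SE 0.19). It was at -1.09 in replicate 2 and at -0.082 to 0.196 on the other arrays, and the fitted change without replicate 2 was 0.027. Its glutamate counterparts Slc17a6 and Slc17a7 were not measured on all arrays. Neither were Syp, the most widely used vesicle marker, Synpr and Sv2b.

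SNARE proteins and their regulators were the largest group, with 11 of 12 tested. Of these, 8 had a fitted change above 0 and 3 below, with a median of 0.031. Of the core fusion set, Snap25, Vamp1 and Vamp2 were close to 0. Snap25, on the plasma membrane, was at -0.044 (95% interval -0.146 to 0.059). The vesicle SNAREs Vamp1 and Vamp2 were at 0.031 (95% interval -0.086 to 0.148) and 0.048 (95% interval -0.038 to 0.134). Stx1a, the plasma membrane partner of Snap25 in that set, was at 0.097 (SE 0.043, limma adjusted p = 0.493). Its 95% interval of -0.0082 to 0.202 overlapped those of Snap25, Vamp1 and Vamp2. Its ratios were -0.065, 0.127 and 0.036 on the Cy5 arrays, against 0.21 and 0.114 on the Cy3 arrays.

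Complexins clamp the partly zipped SNARE complex until calcium arrives. Cplx2 was at -0.014, 0.084 and 0.144 on the Cy5 arrays, against 0.097 and 0.194 on the Cy3 arrays, for a fitted change of 0.11 (SE 0.040, limma adjusted p = 0.407). Its 4 probes averaged 0.091, 0.066, 0.214 and 0.033, all above 0. Cplx1 was at 0.067, 0.354 and 0.133 on the Cy5 arrays, against -0.059 and 0.195 on the Cy3 arrays, highest in replicate 2. The fitted change of 0.13 (SE 0.061) for Cplx1 had a limma adjusted p of 0.532. It was 0.19 without replicate 4, 0.084 without replicate 2 and 0.063 without replicate 5.

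After fusion the ATPase Nsf, with its adaptors Napa and Napb, takes the SNARE complex apart. Nsf was at -0.041, 0.061 and -0.134 on the Cy5 arrays, against -0.159 and -0.077 on the Cy3 arrays. It was below 0 on 4 of 5 arrays, with a fitted change of -0.078 (SE 0.042, limma adjusted p = 0.580). Its 2 probes averaged -0.132 and -0.0077. Napa was above 0 on all arrays, at 0.054, 0.103, 0.035, 0.022 and 0.023 in replicates 1 to 5, and its fitted change was 0.043 (SE 0.033). The Napa probes disagreed, with means of -0.049 and 0.144, and in replicate 2 they lay at -0.32 and 0.53, on opposite sides of 0. Napb had the smallest spread among the 36 genes, between -0.0115 and 0.036 (SD 0.020, n = 5), from probes with means of 0.069 and -0.041.

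In Snap29, a SNARE of wide tissue range that also acts in autophagy, the Cy5 arrays and the Cy3 arrays lay apart. It was at 0.212, 0.108 and 0.167 on the Cy5 arrays, against -0.094 and -0.130 on the Cy3 arrays. The fitted change was 0.025 (SE 0.035), and the dye effect 0.14 (limma adjusted p = 0.127). Of its 2 fitted probes the first alone had this pattern, at 0.32, 0.28, 0.33, -0.177 and -0.199 in replicates 1 to 5, whose dye effect of 0.25 passed when probes were fitted singly (limma adjusted p = 0.0321). The second probe stayed between -0.067 and 0.103. Probe 3, outside the fit, was at -0.35, -0.71, -0.058 and 0.041 in replicates 1 to 4, opposite in sign to the first on each of these arrays. Unc13a, which primes vesicles, was at -0.030 (SE 0.043), and Unc13b was not measured on all arrays.

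Rab3 proteins are small GTPases that bring vesicles to the active zone, and 4 of them were tested. Rab3a, the main form in neurons, was at 0.32, 0.36 and 0.30 on the Cy5 arrays. On the Cy3 arrays it was at -0.069 and -0.032. The values were tight within each orientation and far apart between them. The fitted change was 0.14 (SE 0.033, limma adjusted p = 0.196). The dye effect of 0.19 was past the threshold (limma adjusted p = 0.0472), lost at 0.109 to 0.511 when replicate 1, 3, 4 or 5 was left out. Rab3d, the form of secretory cells, was at 0.173, 0.194 and 0.148 on the Cy5 arrays, against 0.010 and -0.073 on the Cy3 arrays, with a fitted change of 0.070 (SE 0.034, limma adjusted p = 0.535).

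Rab3b and Rab3c had fitted changes below 0. Rab3b was at -0.044, -0.200 and -0.089 on the Cy5 arrays, against 0.030 and -0.074 on the Cy3 arrays, with a fitted change of -0.067 (SE 0.041, limma adjusted p = 0.633). Rab3c had a fitted change of -0.058 (SE 0.037) and was below 0 on the 3 Cy5 arrays only. The Rab3 effectors Rims1 and Rims2 were at 0.015 and 0.069, with values on both sides of 0. Rph3a, rabphilin, was not measured on all arrays, and 5 of its 6 deposited values were below 0.

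The scaffolds of the active zone were close to 0. Erc1, Erc2, Ppfia3 and Bsn, the gene of the giant protein bassoon, had fitted changes of 0.031, 0.0055, -0.020 and -0.019, with a median of -0.0065. Erc1 was at -0.062, 0.068 and 0.036 on the Cy5 arrays, against 0.029 and 0.069 on the Cy3 arrays, and its probes averaged 0.073 and -0.017. None of the 4 was on one side of 0 on all arrays. Pclo, the gene of piccolo, had 3 probes, of which 1 was measured on 0 arrays, and its 4 deposited values ran from -0.27 to 0.028.

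The genes of vesicle endocytosis, 4 of 6 tested, had the largest median dye effect of the 7 roles, at 0.21. Of these 4 dye effects 3 were above 0, and only that of Amph passed the threshold. Amph encodes amphiphysin, a curved scaffold that recruits dynamin to the neck of the forming vesicle. It was at 0.355, 0.121 and 0.233 on the Cy5 arrays, against -0.32 and -0.246 on the Cy3 arrays. The sign of the ratio turned with the dye on every array. Its fitted change was -0.023 (95% interval -0.135 to 0.089), while its dye effect of 0.26 was the largest of the 36 genes and past the threshold (limma adjusted p = 0.0472). That call was lost without replicate 1 or 3 (limma adjusted p = 0.185 and 0.119), where the dye effect was 0.23 and 0.26. Without replicate 4 or 5, which leaves 1 Cy3 array, the dye effect was 0.24 and 0.28.

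Dnm1, the neuronal dynamin that cuts the vesicle free, was at 0.249, 0.497 and 0.349 on the Cy5 arrays, against 0.0075 and -0.177 on the Cy3 arrays. The fitted change was 0.14 (SE 0.052, limma adjusted p = 0.406) and the dye effect 0.22 (limma adjusted p = 0.103). Snap91, the clathrin assembly protein AP180, was at 0.42, 0.032 and 0.365 on the Cy5 arrays, against -0.117 and -0.133 on the Cy3 arrays. Bin1, an amphiphysin relative found in many tissues, ran the other way. It was at 0.005, 0.047 and -0.133 on the Cy5 arrays, against 0.20 and 0.21 on the Cy3 arrays, with a fitted change of 0.088 (SE 0.040, limma adjusted p = 0.514) and a dye effect of -0.115. Dnm3 and Sh3gl2, the gene of endophilin A1, were not measured on all arrays, and their deposited values lay between -0.084 and 0.082.

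**Figure D3:**
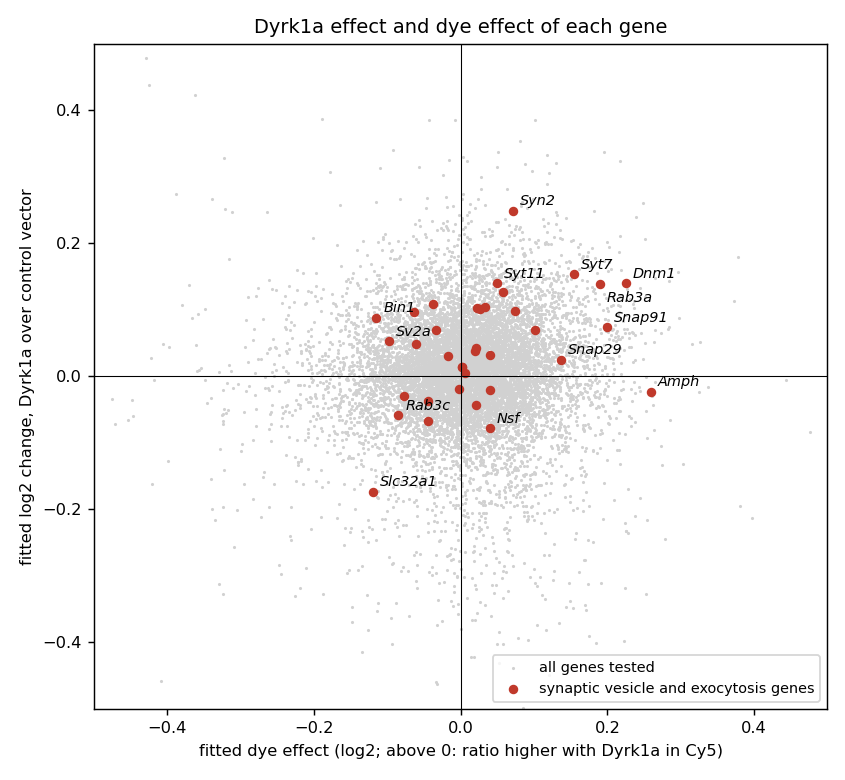
The fitted log2 change of Dyrk1a over control vector (y axis) against the fitted dye effect (x axis) for every gene tested (grey) and for the 36 synaptic vesicle and exocytosis genes (red), within 0.5 of 0 on both axes, which leaves out 12 genes. Amph lies far to the right at a change of -0.023, and Syn2 is highest at a dye effect of 0.071.

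Over the whole group, the dye effect passed for 2 of 36 genes, Rab3a and Amph, against 1.33% of all genes tested. At an unadjusted p under 0.05 there were 8, against 14.9%, and 23 dye effects were above 0, against 55.3%. In 9 genes the 3 Cy5 arrays all lay above the pair of Cy3 arrays, against 21% of all genes. These were Dnajc5, Syt7, Snap29, Napa, Rab3a, Rab3d, Dnm1, Amph and Snap91. In another 5 they all lay below, namely Sv2a, Vamp2, Unc13a, Rab3c and Bin1, against 16.5%. Without replicate 2 the dye effect passed for 7, adding Syt7, Snap29, Dnm1, Snap91 and Sv2a, where it passed for 10.6% of all genes. In Snap29, Rab3a, Amph and Snap91 the Cy5 arrays were all above 0 and the Cy3 arrays all below, 4 of 36, against 9.07%. What sets the dye effect of a probe was not tested.

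Other treatments of the spread between arrays changed the calls. With the arrays scaled to the same spread, Syn2 was 1 of 36 called, against 1.95% of all genes, 0.384% as higher and 1.56% as lower, and the dye effect was called for Rab3a, Dnm1 and Amph, against 3.6%. Array weights were 3.74, 0.15 and 0.58 on the Cy5 arrays and 1.76 on each Cy3 array. Replicate 2 was thus nearly set aside, and replicate 1 carried most of the weight of the Cy5 arrays. With these weights limma called Syn2, Syt7, Syt11, Rab3a and Snap91, all as higher. That is 5 of 36, against 12% of all genes, 5.56% as higher and 6.41% as lower. The dye effect was then called for 12 of 36, against 25.4%.

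Coverage of the group was uneven between its roles. A test was possible for 36 of 48 genes, against 58.6% of all genes on the array. Of the 109 probes that name a member, 60 were measured on all 5 arrays, 55.0%, against 53% of all probes that name 1 gene, and 5 were measured on 0 arrays, against 4.79%. The 12 genes with probes but no test were Syp, Synpr, Sv2b, Slc17a6, Slc17a7, Syt4, Syt5, Unc13b, Rph3a, Pclo, Dnm3 and Sh3gl2. Their 25 probes gave 49 values as deposited, 26 above 0 and 23 below, from -0.27 to 0.25. Of the vesicle membrane proteins and transporters 6 of 11 were thus without a test, against 1 of 12 SNAREs and regulators.

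**Figure D4:**
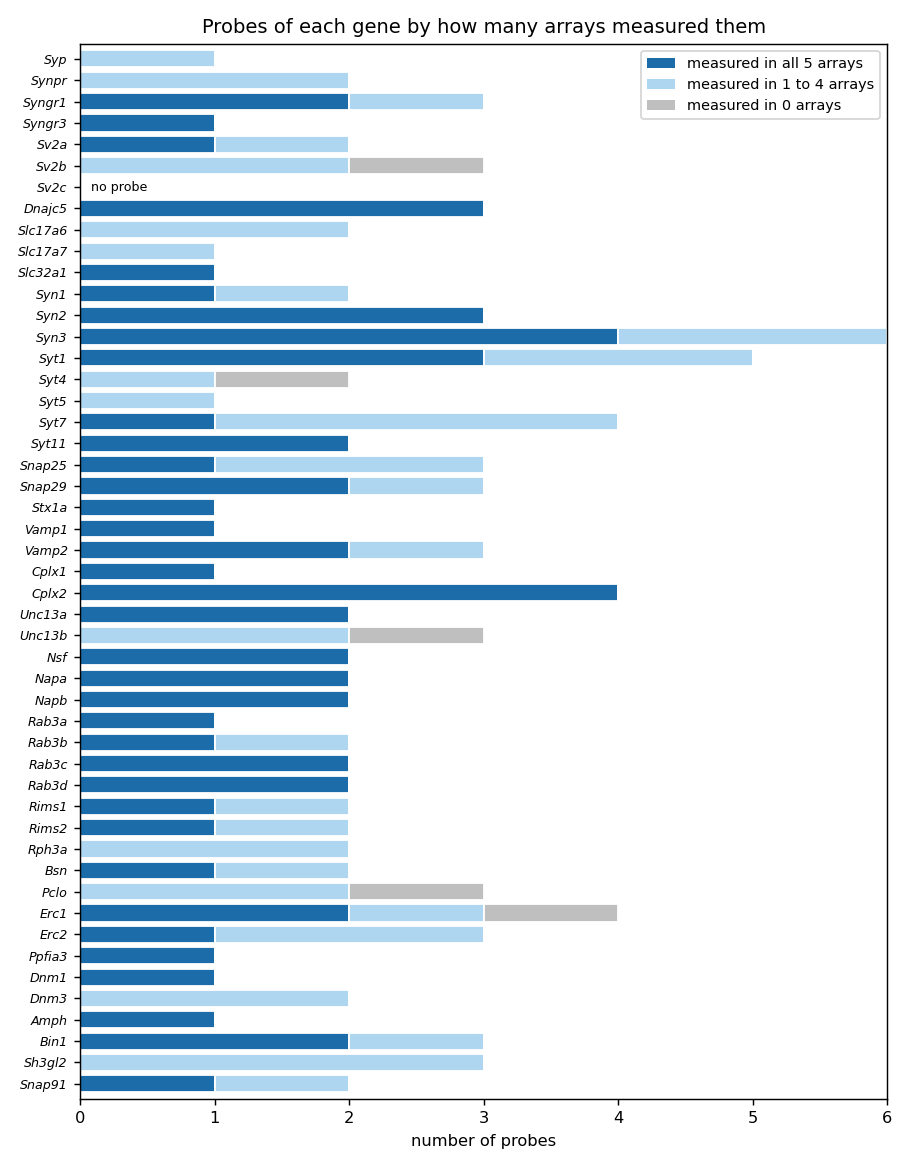
The number of probes (x axis) that name each of the 49 genes, split by whether they were measured on all 5 arrays, on 1 to 4 or on 0. Syp and Slc17a7 have 1 probe each, not measured on all arrays, while all 4 probes of Cplx2 were.

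A further list of 76 vesicle cycle genes outside the group, such as other syntaxins, clathrin adaptors and subunits of the proton pump that energizes the vesicle, had 50 tested. Limma called 0 of them in either direction. At an unadjusted p under 0.05, 2 of 50 were on the higher side, against 5.25% of all genes, and 1 on the lower, against 6.38%. Their median fitted change was 0.027, against 0.0080 over all genes, and 39 of 50 were above 0, against 54.9%. The genes with the smallest p were Stx7 at 0.15 and Atp6v1h at 0.15 among the higher, and Vamp7 at -0.19 and Cplx3 at -0.077 among the lower. None of these 4 changes passed the test. The dye effect was called for 2 of the 50, against 1.33% of all genes. It was 0.22 in Snap47 (limma adjusted p = 0.0377), a relative of Snap25 named after its values were seen, and 0.27 in Stx7, an endosomal syntaxin (limma adjusted p = 0.0432).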

How the data were processed

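The authors' deposited table holds log2 ratios for 44290 features of two-colour Agilent arrays, 1 column for each of 5 arrays, and 0 columns of other samples. RNA was extracted with Trizol and labelled by linear amplification, per the labels' protocols; scanning, background correction, normalization and the reason for blanks are not given in the sources used here. Log base and direction are not stated. Base 2 was inferred from the spacing of repeated unnamed spots, and Dyrk1a over control vector from the Dyrk1a probe. Every fold given here depends on that inferred base. Without intensities dim probes could not be filtered, and the number of arrays limits the precision.

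A gene was the mean of its probes measured on all arrays (probes naming 1 gene: 32042). Centring subtracted the array's median of the 14307 features tested, between -0.027 and 0.051. Limma 3.58.1 in R 4.3.3 (lmFit, eBayes, two-sided) fitted the Dyrk1a change and, per gene, a dye effect with 3 residual degrees of freedom, and p-values were Benjamini-Hochberg adjusted over all features; an adjusted p under 0.05 was called. The design text calls the 5 measurements independent, which no label details, so p-values measure the spread between these arrays. Python 3.11.15 drew the plots.

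The members, lists and tests were chosen with earlier results of these data known. Values by array were to be given for the 12 smallest p, the 3 highest and 3 lowest changes, members whose probes differ in sign, and members with a called dye effect. Syn1, Syt1, Sv2a and Snap91 were added after their values were seen. The fit was tested on simulated data whose planted changes were far larger than any fitted change of a member. That test does not cover changes of the size reported for the members. Alternatives were array weights, scaling (by the median absolute value, since the planned limma function divides by medians near 0), no centring, no dye term, other probe rules and leaving out each array.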

Additional observations from a re-analysis of the deposited data

Results flagged for a closer look

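In 2 of the 36 genes 1 array lay far from the other 4 by Dixon's test at the 95% level, and chance flags about 1 in 20 groups. Slc32a1 was at -1.09 in replicate 2, and Syn2 was at 0.52 there. Replicate 2 was in both cases the array concerned, and it had the widest spread over all genes.

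The ratios of 2 genes differed between the dye orientations in the limma fit. The dye effect was 0.19 in Rab3a and 0.26 in Amph, higher with Dyrk1a in Cy5 on 3 of 3 arrays than on either array with Dyrk1a in Cy3.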

How the results depend on the processing

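Of the 21 genes chosen for values by array, 19 kept the sign of their fitted change whichever array was left out, as did 28 of all 36 tested; Syn1, Vamp1, Rims1, Bsn, Erc2, Ppfia3, Slc32a1 and Amph did not. The number of the 36 genes called for Dyrk1a was 0 with all arrays. It was 5 with array weights (Syn2, Syt7, Syt11, Rab3a and Snap91), where 12% of all genes were called. With arrays scaled to the same spread it was 1 (Syn2), where 1.95% of all genes were called. Without replicate 2 it was 1 (Syn2), where 3.36% of all genes were called. It was 0 without replicate 1 or 3, where no share over all genes was computed. With probes fitted singly and without replicate 2, added after seeing the data, it was 1, and no share over all probes was computed. The array weights gave replicate 2 a weight of 0.15 and replicate 1 one of 3.74. The number called on the dye effect was 2 in the main fit and 12 with array weights, where 25.4% of all genes were called. It was 1 over features measured on at least 4 arrays and 1 with probes fitted singly (Snap29), and no share over all features was computed for either. Without replicate 2 it was 7, where 10.6% of all genes were called. It was 0 without replicate 1 or 3, again with no share over all genes computed. These drops therefore cannot be set against the array as a whole. Of 60 probes fitted singly 42 had a change above 0, and the same share over all probes was not computed. With array weights 3 of the 50 other vesicle cycle genes were called, where 12% of all genes were. The median over the group stayed between 0.030 and 0.058 in all alternatives. The fitted change turned sign for Slc32a1 without replicate 2 (-0.30 to 0.027 over the arrays left out), and for Amph with no dye term (0.029), with array weights (0.025) and without replicate 2 (-0.053 to 0.0059 over the arrays left out). For Snap29 it was -0.052 with whichever probes were measured. For single probes it turned for Syn3 (0.017), Snap29 (-0.010), Nsf (0.0012), Napa (-0.048), Napb (-0.033) and Erc1 (-0.011). Beyond the smaller number of arrays or other probes in these settings, the cause was not tested. Each array sets 1 Dyrk1a sample against 1 control vector sample and the fit used their ratio, so the pairing on the array was kept. Because only the ratio was at hand, an unpaired analysis was not possible.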
